A study of Mus musculus with 18 samples.

Results

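Gene counts of T23 cells grown with Sparc-deficient fibroblasts were set directly against those of T23 cells grown with fibroblasts and enzalutamide, over all genes. The 6 libraries, 3 of each co-culture, were taken by their labels from the 18 libraries of the series. T23 is a mouse prostate adenocarcinoma cell line. The series measured polyadenylated RNA of these cells in 6 groups of 3 libraries, and its title concerns loss of the matrix glycoprotein SPARC from prostate stroma and neuroendocrine differentiation. The Sparc-deficient co-culture holds T23 cells and fibroblasts labelled SPARC-deficient, with no drug. The enzalutamide co-culture holds T23 cells, fibroblasts with no Sparc deletion in the labels, and enzalutamide, an antiandrogen drug. Untreated T23 cells with wild-type fibroblasts, also 3 libraries, are given beside both. The groups compared thus differ in fibroblast genotype and in drug, and these cannot be told apart in the direct contrast.

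The labels limit these groups as models. The description of the enzalutamide co-culture calls its fibroblasts human, whereas its titles give the fibroblast name used for the wild-type co-culture, so the source of the fibroblasts may differ too. Dose and time of the drug, the way Sparc was removed and whether fibroblasts were separated from T23 cells before RNA extraction are not given in the sources used here. In such bulk RNA, fewer cells of a type and less RNA per cell cannot be told apart. Nothing in the labels says that the replicates came from separate cultures, so a p-value measures only the spread between these libraries, which may be technical.

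SPARC is a secreted, collagen-binding glycoprotein that stromal cells place in the extracellular matrix, where it affects collagen assembly and the way cells attach. Most prostate adenocarcinomas depend on androgen signalling, and enzalutamide blocks it. Under both stromal SPARC loss and such blockade, prostate tumours have been studied for a turn towards neuroendocrine features, which are marked by genes such as Chga, Syp, Eno2 and Ncam1.

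Library totals were 21.6, 20.3 and 22.8 M counts in the Sparc-deficient co-culture and 20.9, 19.8 and 20.5 M counts in the enzalutamide co-culture, with 18817 to 19642 genes detected. Levels are in CPM, normalised counts per M, and 3 counts, the most that a count of 0 allows, correspond to 0.132 to 0.151 CPM. The mitochondrially encoded genes with counts took 0.944, 1.68 and 1.64% of the counts in the Sparc-deficient co-culture, against 1.55, 2.71 and 2.70% in the enzalutamide co-culture. This share leaves out 6 of the 15 mitochondrial genes, mt-Co2, mt-Co3, mt-Atp6 and mt-Atp8 among them, which are listed at 0 in all 6 libraries. The index at the end of each title restarts after 16, so that replicate 1 of the enzalutamide co-culture carries an index of the same run of numbers as all 3 Sparc-deficient libraries, and replicates 2 and 3 carry indices of the next run. A library outside the comparison, of T23 cells with enzalutamide and no fibroblasts, was rich in ribosomal RNA and enters the fit as a member of its own group. Results were also computed without it, with the numbering as a term and with replicate 1 as the only enzalutamide library. On the first principal component of the 6 libraries, with 56% of the variance, the Sparc-deficient libraries stood at -14.6, -18.7 and -14.5, against 13.4, 17.5 and 16.9 for the enzalutamide libraries.

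Of 13600 tested genes, 3470 passed an adjusted p of 0.05 in edgeR's quasi-likelihood test, which is 25.5% of the tested genes. The Sparc-deficient co-culture was higher for 1751 of them, 12.9% of the tested genes, and lower for 1719, 12.6% of the tested genes. These shares are the background for the counts of list members below. Against the untreated wild-type co-culture, 6.72% were higher and 4.79% lower in the Sparc-deficient co-culture, and 3.7% and 3.49% in the enzalutamide co-culture. Most differences in the direct contrast were small, with a median size of 0.33 on the log2 scale among called genes. A called difference of at least 2-fold was found for 340 genes, 2.5% of those tested. Of these 216 were higher, 1.59% of the tested genes, and 124 lower, 0.912%. The 95% interval lay within 1.5-fold either way for 9704 genes, or 71.4%. With the numbering as a term 1657 genes were called, and with replicate 1 as the only enzalutamide library 1550 genes.

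**Figure D1:**
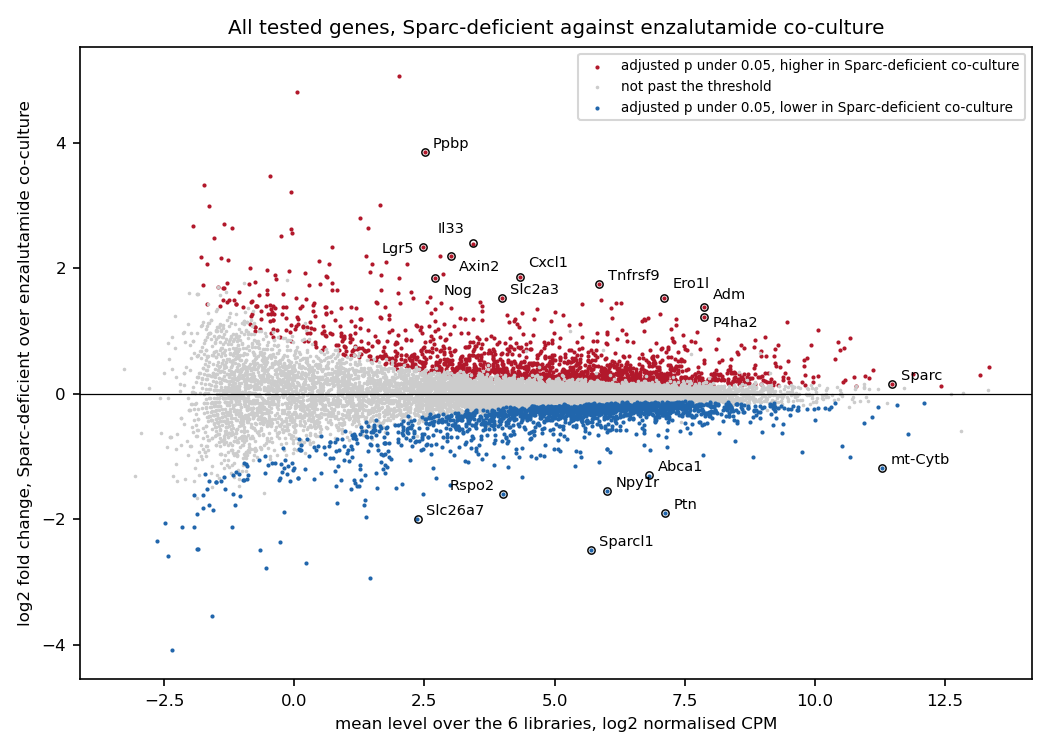
Log2 fold change of the Sparc-deficient over the enzalutamide co-culture (vertical axis) against the mean level over the 6 libraries in log2 normalised CPM (horizontal axis), 1 point per tested gene, with red and blue for genes higher and lower at an adjusted p under 0.05. Of 13600 points, 1751 are red and 1719 are blue, and circles mark genes described in the text, from Ppbp at 3.86 to Sparcl1 at -2.49.

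Sparc itself, at chromosome 11 from 55394500 to 55423183 on GRCm38, had 3101, 3016 and 2977 normalised CPM in the Sparc-deficient co-culture, against 2586, 2797 and 2800 in the enzalutamide co-culture. The ranges did not overlap, and the log2 difference was 0.15 ± 0.05 (SE; adjusted p 0.0172). T23 cells alone averaged 3197 CPM, so a loss of Sparc from the fibroblasts is not visible in these totals, the gene does not check the label, and the name Sparc-deficient rests on the label alone. The call was lost without Sparc-deficient replicate 1 (adjusted p 0.0692), without enzalutamide replicate 1 (0.0853) and with no filter on low counts (0.0588).

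Hypoxia and glycolysis genes formed the list with the highest share of called members. Of 34 listed genes, all tested, 33 were higher in the Sparc-deficient co-culture, against 12.9% of all tested genes, and none was lower. The median log2 difference was 0.75 over the list and -0.00352 over all tested genes. In 32 of the 34 genes the ranges of both groups did not overlap, which held for 40.3% of all tested genes. Genes of this kind are activated by hypoxia-inducible factors, which prolyl hydroxylases mark for degradation when oxygen is present, and glycolysis turns glucose into pyruvate and lactate.

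Among the oxygen sensors, Egln1 and Egln3, which encode those prolyl hydroxylases, were higher by 1.04 ± 0.08 and 1.19 ± 0.15 on the log2 scale. Egln1 had 200, 208 and 198 CPM in the Sparc-deficient co-culture, against 91.6, 95.3 and 108 in the enzalutamide co-culture, with no overlap (adjusted p 7.36e-10). Of the secreted and surface products, Adm, which encodes the vasodilator peptide adrenomedullin, had 329, 364 and 324 CPM with Sparc-deficient fibroblasts, against 121, 128 and 141 with enzalutamide (log2 1.38 ± 0.08, adjusted p 5.25e-11). The lowest Sparc-deficient library thus stood far above the highest enzalutamide library. Car9, a carbonic anhydrase that buffers pH at the cell surface, stood low at 4.33, 4.73 and 3.72 CPM with Sparc-deficient fibroblasts, against 1.22, 1.00 and 0.533 CPM with enzalutamide, and showed the largest log2 difference of the list at 2.21 ± 0.25. Vegfa, the angiogenic growth factor, was higher by 0.67 ± 0.09.

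Glucose import and the enzymes that control glycolysis moved the same way. Slc2a3, a high-affinity glucose transporter, had 23.4, 23.0 and 24.4 CPM in the Sparc-deficient co-culture, against 8.55, 8.05 and 7.85 in the enzalutamide co-culture (log2 1.53 ± 0.13, adjusted p 3.45e-09), and the transporter Slc2a1 was higher by 0.71. Pfkfb3, whose product makes the activator of phosphofructokinase, had 151, 155 and 159 CPM with Sparc-deficient fibroblasts, against 66.1, 67.8 and 68.2 with enzalutamide (log2 1.20 ± 0.08, adjusted p 2.80e-10). For neither gene did the groups overlap, which for Slc2a3 was a condition of its choice among the largest differences. The glycolytic enzyme genes Pfkp (0.85), Gpi1 (0.77), Eno1 (0.77), Pfkl (0.71), Aldoa (0.69), Gapdh (0.55), Pgam1 (0.55), Tpi1 (0.54), Pkm (0.39), Hk2 (0.35), Hk1 (0.26) and Pfkm (0.15) were all higher, on the log2 scale, as was Pgk1, at 582, 624 and 576 CPM in the Sparc-deficient co-culture, against 357, 312 and 316 in the enzalutamide co-culture (0.86 ± 0.08). Pfkfb4 had 6.94 ± 0.730 CPM in the Sparc-deficient co-culture and 5.95 ± 0.349 in the enzalutamide co-culture (SD, n = 3 each) and was the only member not called (adjusted p 0.207).

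At the end of the pathway, Ldha, which makes lactate, averaged 1882 ± 39.0 CPM in the Sparc-deficient co-culture and 1132 ± 32.7 in the enzalutamide co-culture (SD, n = 3 each), a log2 difference of 0.73 ± 0.07. The lactate exporter Slc16a3 was higher by 1.22, and Pdk1, a kinase that inhibits pyruvate dehydrogenase, by 1.27. Bnip3, a mitophagy receptor, had 88.5, 87.7 and 85.7 CPM with Sparc-deficient fibroblasts, against 31.4, 28.7 and 33.2 with enzalutamide, without overlap (log2 1.49 ± 0.12, adjusted p 2.47e-09). Ero1l, an oxidase of the endoplasmic reticulum, had 192, 214 and 209 CPM with Sparc-deficient fibroblasts, against 72.0, 60.9 and 80.4 with enzalutamide (log2 1.53 ± 0.14, adjusted p 2.94e-08). P4ha2, a collagen prolyl hydroxylase gene, had 324, 353 and 313 CPM in the Sparc-deficient co-culture, against 143, 135 and 145 in the enzalutamide co-culture (log2 1.23 ± 0.09, adjusted p 3.22e-10), and its relative P4ha1 was higher by 0.60. Neither Ero1l nor P4ha2 overlapped between the groups, which for Ero1l was a condition of its choice among the largest differences. Ankrd37 (1.26), Ndrg1 (0.76), Higd1a (0.63), Mxi1 (0.54) and Ddit4 (0.29) make up the rest of the list. Eno1 and Gapdh have close copies elsewhere in the genome, so their counts are less certain.

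The untreated wild-type co-culture lay between both groups for most of these genes. Against it, 29 of the 34 genes were higher and none lower in the Sparc-deficient co-culture, where 6.72% of all tested genes were called higher, with a list median of 0.36 on the log2 scale. In the enzalutamide co-culture 25 were lower and none higher against the same 3 libraries, where 3.49% of all tested genes were called lower and 7.18% were called in all, with a list median of -0.39. These comparisons share the wild-type libraries and are not independent of each other. Across the 16 other settings that refit the data at the same threshold, 31 to 33 members were higher and none was lower in the Sparc-deficient co-culture. Pfkm (adjusted p 0.286) and Ddit4 (adjusted p 0.298) lost their call when replicate 1 was the only enzalutamide library.

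**Figure D2:**
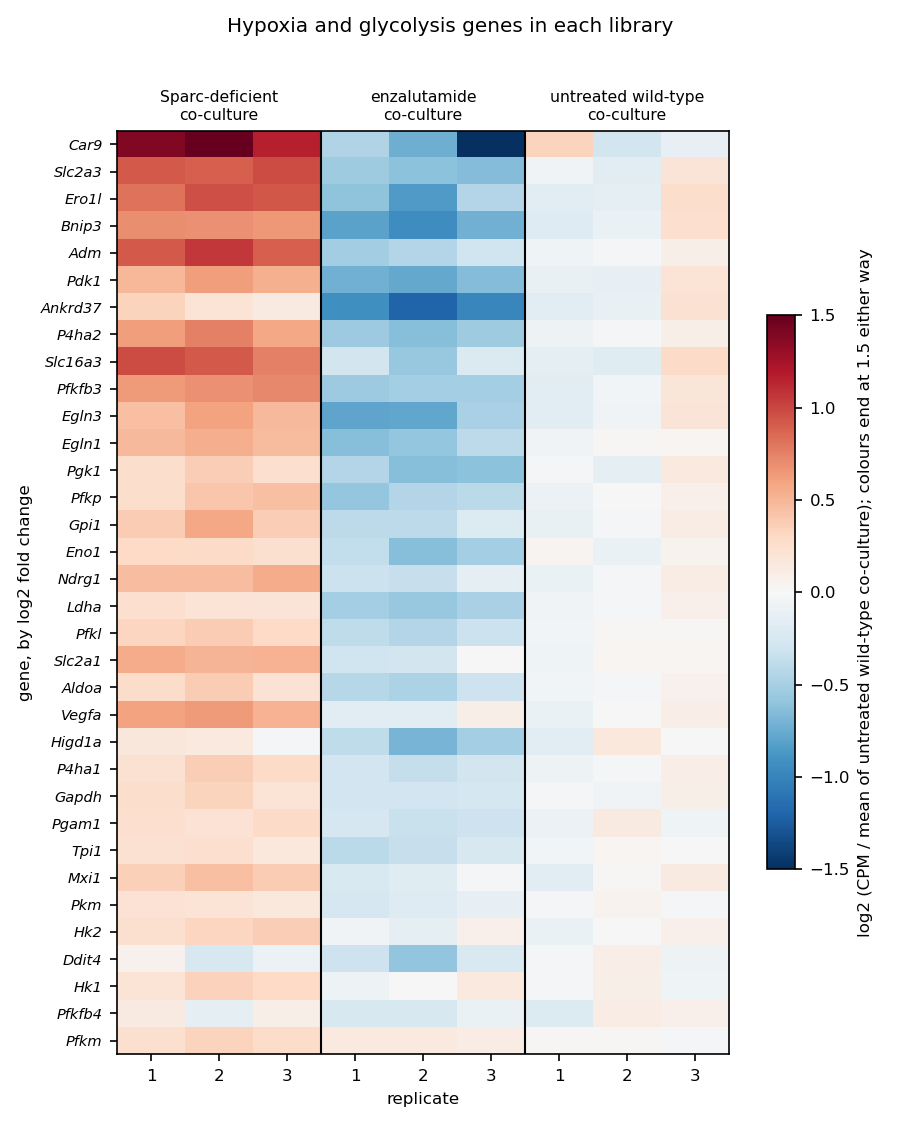
Each row is a gene of the hypoxia and glycolysis list, each column a library, and the colour gives log2 of the normalised CPM over the mean of the untreated wild-type co-culture, ending at 1.5 either way. The Sparc-deficient columns are red for nearly every gene and the enzalutamide columns mostly blue, with Ddit4, Pfkfb4 and Pfkm near the bottom the least separated.

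Promoter windows of 4 of these genes are shown because each holds the core letters of the hypoxia response element, ACGTG, searched on both strands, which are in capitals. Each window runs from 250 bases before to 50 bases after the gene's start in RefSeq, on GRCm38.p6. They are P4ha2 at chr11:54100674-54100973 on the plus strand, Egln1 at chr8:124949205-124949504 on the minus strand, Bnip3 at chr7:138909457-138909756 on the minus strand and Pgk1 at chrX:106186850-106187149 on the plus strand. In Bnip3 matches on both strands overlap, and in Pgk1 the match further downstream is on the opposite strand.
P4ha2: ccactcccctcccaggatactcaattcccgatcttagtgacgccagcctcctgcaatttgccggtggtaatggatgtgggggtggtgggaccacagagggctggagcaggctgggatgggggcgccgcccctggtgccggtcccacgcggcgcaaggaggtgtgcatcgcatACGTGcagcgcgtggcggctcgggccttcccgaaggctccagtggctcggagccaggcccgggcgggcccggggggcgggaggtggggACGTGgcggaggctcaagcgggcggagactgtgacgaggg
Egln1: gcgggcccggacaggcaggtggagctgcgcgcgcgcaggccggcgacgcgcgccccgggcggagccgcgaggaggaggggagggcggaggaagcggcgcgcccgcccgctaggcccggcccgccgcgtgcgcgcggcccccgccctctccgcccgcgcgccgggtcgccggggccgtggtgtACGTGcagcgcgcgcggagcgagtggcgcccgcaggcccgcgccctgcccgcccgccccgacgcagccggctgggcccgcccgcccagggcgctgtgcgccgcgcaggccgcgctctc
Bnip3: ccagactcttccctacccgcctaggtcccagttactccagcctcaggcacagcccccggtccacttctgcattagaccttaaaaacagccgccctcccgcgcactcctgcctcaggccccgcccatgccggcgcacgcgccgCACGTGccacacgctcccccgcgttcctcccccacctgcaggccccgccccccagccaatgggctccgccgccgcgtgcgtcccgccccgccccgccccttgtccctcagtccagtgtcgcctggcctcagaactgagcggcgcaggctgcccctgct
Pgk1: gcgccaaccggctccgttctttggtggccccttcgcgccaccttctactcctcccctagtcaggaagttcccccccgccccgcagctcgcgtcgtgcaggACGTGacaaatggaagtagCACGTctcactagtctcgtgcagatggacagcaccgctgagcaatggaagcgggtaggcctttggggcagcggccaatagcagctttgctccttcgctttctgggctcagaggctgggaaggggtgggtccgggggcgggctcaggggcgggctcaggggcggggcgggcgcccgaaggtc
Of the 31 listed genes with a window, 23 held ACGTG in at least 1 window, or 74.2%. Of 10014 tested genes with a window 2944 did, or 29.4%. Counted by window and not by gene, 19.6% of all 32851 windows held it. Genes with several windows have more chances of a match, and the number of windows per gene was not matched. The core contains a CpG, and the windows were not matched for base composition. A match describes letters in the window, not a bound site. Slc2a3, Ndrg1 and Ero1l had no window in the table, and Adm had no match in its own.

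The largest differences at a mean of at least 5 CPM named 12 genes on either side. Higher in the Sparc-deficient co-culture were the cytokine genes Ppbp, Il33 and Cxcl1, the Wnt pathway genes Lgr5 and Axin2, the BMP antagonist Nog, the TNF receptor family member Tnfrsf9, Alox5ap of leukotriene synthesis, the protease Prss22, the class I gene H2-Q7, and Slc2a3 and Ero1l. Lower were Sparcl1, the closest relative of Sparc, the anion exchanger Slc26a7, the growth factor Ptn, Ldb2, the Wnt agonist Rspo2, the neuropeptide Y receptor Npy1r, Ifi207, Fgl2, the steroid reductase Akr1c14, the cholesterol exporter Abca1, Eya1 and mt-Cytb. H2-Q7 and Ifi207 have close paralogs, so their counts are less certain. All were chosen for a large difference and for groups that do not overlap. That difference equals the Sparc-deficient minus the enzalutamide difference from wild type, on shared wild-type libraries, so the choice of genes favours opposite directions against wild type and the calls are only a description. The wild-type co-culture was not called different from the enzalutamide co-culture for Ppbp, Il33, Slc26a7, Akr1c14 and Eya1, nor from the Sparc-deficient co-culture for Axin2, Fgl2, Abca1 and mt-Cytb. The other genes were called against wild type in both co-cultures, in opposite directions.

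**Figure D3:**
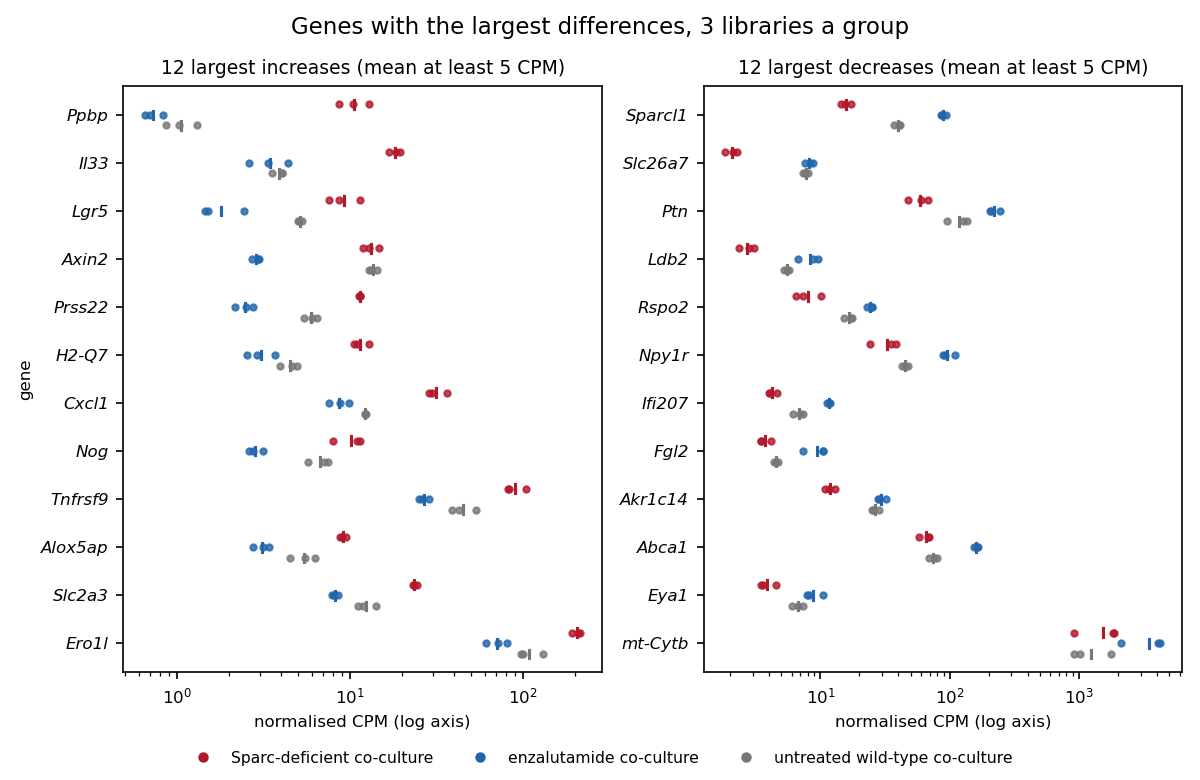
Normalised CPM (log axis) of the 12 genes with the largest increase and the 12 with the largest decrease at a mean of at least 5 CPM, with 3 points per group for the libraries and a tick at their mean. Groups that do not overlap were a condition of the choice. The wild-type points lie near the Sparc-deficient ones for Axin2 and near the enzalutamide ones for Il33 and Slc26a7.

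Chemokine and IL-1 family genes differed in both directions. Of 21 tested members 8 were higher with Sparc-deficient fibroblasts and 6 lower, against 12.9% and 12.6% of all tested genes. Ppbp, a chemokine that attracts neutrophils, had 12.8, 8.67 and 10.4 CPM in the Sparc-deficient co-culture, against 0.654, 0.700 and 0.824 in the enzalutamide co-culture, a 14.5-fold difference (log2 3.86 ± 0.25, adjusted p 1.55e-10). Cxcl1, which also attracts neutrophils, had 36.2, 28.7 and 29.8 CPM with Sparc-deficient fibroblasts, against 9.81, 7.55 and 8.73 with enzalutamide (log2 1.86 ± 0.12, adjusted p 2.09e-10). The alarmin Il33 had 16.7, 19.4 and 18.5 CPM with Sparc-deficient fibroblasts, against 3.36, 4.40 and 2.62 with enzalutamide (log2 2.40 ± 0.17, adjusted p 3.22e-10). Groups that do not overlap were a condition of choosing these 3 genes. Relative to the untreated wild-type co-culture, Ppbp differed by 3.32 and -0.54 on the log2 scale in the Sparc-deficient and the enzalutamide co-culture, Il33 by 2.23 and -0.16, and Cxcl1 by 1.37 and -0.49. The other higher members were Cxcl5 (1.89), Ccl9 (0.60), Cxcl10 (0.31), the IL-1 receptor Il1r1 (0.44) and the IL-33 receptor Il1rl1 (0.27). The lower ones were Ccl2 (-0.49), Ccl7 (-0.50), Ccl8 (-0.61), Cxcl12 (-0.41), the IL-1 receptor antagonist Il1rn (-0.32) and Cxcl9 (-1.41), which averaged 0.184 and 0.500 CPM. Lower members numbered 3 without Sparc-deficient replicate 2 and with replicate 1 as the only enzalutamide library.

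Among STAT3 response genes 12 of 22 tested members were higher and none lower, against 12.9% and 12.6% of all tested genes. Their median log2 difference was 0.29, and cytokines of the IL-6 family induce them. Socs3, the feedback inhibitor of that signal, had 115, 109 and 106 CPM in the Sparc-deficient co-culture, against 53.4, 54.1 and 61.8 in the enzalutamide co-culture (log2 0.96 ± 0.07, adjusted p 3.63e-10). Junb had 158, 157 and 127 CPM with Sparc-deficient fibroblasts, against 52.4, 60.9 and 80 with enzalutamide (log2 1.20 ± 0.11), and Cebpd, a transcription factor of the acute phase, 30.8, 32.9 and 24.5 CPM with Sparc-deficient fibroblasts, against 9.81, 12.1 and 14.2 with enzalutamide (1.28 ± 0.14). All 3 were apart in every library. The receptor genes Il6st (0.53), Osmr (0.33) and Il4ra (0.29), the ligand Lif (0.49), the kinases Pim1 (0.68) and Pim3 (0.60), Bcl3 (0.50), Stat3 (0.20) and Timp1 (0.29) were the other called members. Il6 itself was below the count filter. From 12 to 13 members were higher and none lower in each of the 16 refits. Against the wild-type co-culture, 14 were higher and none lower in the Sparc-deficient co-culture, where 6.72% of all tested genes were higher and 4.79% lower. In the enzalutamide co-culture 4 were higher and 1 lower, where 3.7% of all tested genes were called higher and 3.49% lower.

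Immediate early genes, which respond within minutes to growth factors and stress, were higher in 13 of 28 tested members and lower in 3. Over all tested genes 12.9% were higher and 12.6% lower. Ier3, an anti-apoptotic early gene, had 102, 95.5 and 96.6 CPM with Sparc-deficient fibroblasts, against 37.7, 33.1 and 42.9 with enzalutamide, Dusp1, a MAP kinase phosphatase, differed by 1.01 ± 0.07, and Zfp36, which destabilises cytokine mRNA, by 1.17 ± 0.09. Fos, named after its values were seen, had 7.07, 7.98 and 6.57 CPM with Sparc-deficient fibroblasts, against 1.82, 2.05 and 1.26 with enzalutamide (log2 2.07 ± 0.17). The lower members were Egr3, Klf2 and Klf4. No member was lower in either fit that accounts for the numbering, and 1 was lower without Sparc-deficient replicate 2 or 3 or enzalutamide replicate 3. Of 20 tested NF-kB target and feedback genes 7 were higher and 2 lower, with a median of 0.07. They include Ptgs2, the inducible cyclooxygenase, at 199.6 ± 11.1 CPM in the Sparc-deficient co-culture and 108 ± 3.08 in the enzalutamide co-culture (SD, n = 3 each; log2 0.89 ± 0.07), and Csf1, the macrophage growth factor, at 0.45 ± 0.05. The NF-kB count was 6 higher and 1 lower in both fits that account for the numbering.

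The promoter windows of Cxcl1 and Socs3, also from RefSeq on GRCm38.p6 and of the same span, carry letters of the NF-kB and STAT motifs, which are GGG, any 2 bases and TTTCC for NF-kB and TTCNNNGAA for STAT, shown in capitals and searched on both strands. Cxcl1 lies at chr5:90890995-90891294 on the plus strand and Socs3 at chr11:117969317-117969616 on the minus strand. The motifs occur in 1.63% and 8.30% of all 32851 windows.
Cxcl1: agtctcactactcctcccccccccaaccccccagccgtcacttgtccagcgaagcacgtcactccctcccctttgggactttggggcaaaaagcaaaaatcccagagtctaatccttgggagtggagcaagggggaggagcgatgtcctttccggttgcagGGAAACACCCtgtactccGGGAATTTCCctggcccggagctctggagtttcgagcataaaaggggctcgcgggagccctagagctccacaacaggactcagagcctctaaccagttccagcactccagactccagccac
Socs3: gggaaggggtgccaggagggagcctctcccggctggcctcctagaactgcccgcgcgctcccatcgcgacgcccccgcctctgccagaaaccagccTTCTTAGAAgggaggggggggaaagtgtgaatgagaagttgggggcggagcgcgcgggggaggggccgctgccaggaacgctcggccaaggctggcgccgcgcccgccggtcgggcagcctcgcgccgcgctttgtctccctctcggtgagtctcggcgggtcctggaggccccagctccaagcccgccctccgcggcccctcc

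Wnt pathway genes differed in both directions, with 8 of 23 tested members higher and 4 lower, against 12.9% and 12.6% of all tested genes. The largest difference was that of Ccn5, a matricellular protein gene named after its values were seen, which averaged 5.54 CPM in the Sparc-deficient co-culture and 0.680 in the enzalutamide co-culture (log2 3.02, adjusted p 7.06e-09). Axin2, a feedback inhibitor that Wnt signalling induces, had 12.9, 14.8 and 11.9 CPM in the Sparc-deficient co-culture, against 2.94, 2.70 and 2.96 in the enzalutamide co-culture (4.59-fold, adjusted p 2.64e-10). Lgr5, an R-spondin receptor and Wnt target, had 7.57, 11.5 and 8.68 CPM with Sparc-deficient fibroblasts, against 2.43, 1.45 and 1.5 with enzalutamide (log2 2.35 ± 0.19). Both genes were chosen for groups that do not overlap. Against the wild-type co-culture, Axin2 differed by -0.04 (adjusted p 0.870) in the Sparc-deficient and by -2.24 (adjusted p 9.92e-10) in the enzalutamide co-culture, and Lgr5 by 0.85 and -1.5. Rspo2, an R-spondin that amplifies Wnt signals, had 7.34, 6.45 and 10.1 CPM in the Sparc-deficient co-culture, against 22.9, 25 and 24.9 in the enzalutamide co-culture (log2 -1.60 ± 0.12, adjusted p 7.94e-10). Rspo3 differed by -0.62 and the receptor Lgr4 by -0.58 on the log2 scale, and Ccn4 by -0.22. The other higher members were Apcdd1 (0.83), Dkk3 (0.54), Tcf7 (0.50), Dkk2 (0.34) and Ccnd1 (0.16).

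Of the genes for BMP and activin antagonists, Nog, Bmper, Fst and Fstl3 were higher in the Sparc-deficient co-culture and Grem1 was lower. Nog, which encodes the extracellular antagonist noggin, had 11.5, 11 and 8.02 CPM in the Sparc-deficient co-culture, against 3.13, 2.6 and 2.76 in the enzalutamide co-culture (log2 1.84 ± 0.16, adjusted p 1.16e-08), and Bmper, another BMP-binding protein, differed by 1.17 ± 0.09, Fstl3 by 0.72 and Fst by 0.60. Grem1, another antagonist, went the other way, at 500.5, 531 and 529 CPM with Sparc-deficient fibroblasts, against 822, 835 and 759 with enzalutamide (log2 -0.63 ± 0.05), again with no overlap. Of 24 tested BMP genes 8 were higher and 2 lower, with 5 higher and 1 lower in both fits that account for the numbering and 1 lower without Sparc-deficient replicate 1 or enzalutamide replicate 2. The targets Id1, Id2, Id3 and Id4 were not called, at -0.01, -0.32, 0.06 and 0.06. Over all tested genes 12.9% were higher and 12.6% lower, so the lower BMP share was not above that. TGF-beta and YAP response genes were higher in 15 of 28, with a list median of 0.28, and lower in 3, also not above that share. The matricellular genes Ccn1 and Ccn2 led the TGF-beta and YAP list. Ccn1 had 969, 1023 and 931 CPM with Sparc-deficient fibroblasts, against 426, 441 and 456 with enzalutamide (log2 1.14 ± 0.07, adjusted p 2.64e-11), and Ccn2 averaged 219.8 ± 27.6 CPM in the Sparc-deficient co-culture and 103 ± 5.53 in the enzalutamide co-culture (SD, n = 3 each; log2 1.09 ± 0.08). Amotl2 differed by 0.90, whereas Acta2, the smooth muscle actin gene, differed by -0.60. The lower count was 1 in both fits that account for the numbering.

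Of 13 androgen-responsive genes tested, 8 were higher with Sparc-deficient fibroblasts and none was lower, against 12.9% and 12.6% of all tested genes. They include Fkbp5 (0.26), Sgk1 (0.56), Steap1 (0.55) and Ndrg1 (0.76), of which Fkbp5 and Sgk1 also respond to glucocorticoids and Ndrg1 is in the hypoxia list too. Against the wild-type co-culture, 7 of the 13 were higher in the Sparc-deficient co-culture, where 6.72% of all tested genes were. In the enzalutamide co-culture none was higher and 2 were lower, where 3.49% of all tested genes were lower. Pbsn, which is prostate-specific, and Tmprss2 were among the members that did not pass the count filter.

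Neuroendocrine markers were mostly at or near 0 counts. Of 28, 20 stayed below 1 CPM in all 6 libraries and 9 could be tested, of which 2 were higher and 1 was lower. Among all tested genes 12.9% were higher and 12.6% lower. Ncam1, a neural adhesion molecule, had 141, 146 and 143 CPM in the Sparc-deficient co-culture, against 92.2, 95.5 and 95.8 in the enzalutamide co-culture (log2 0.60 ± 0.07, adjusted p 1.27e-06), with no overlap. It differed from the wild-type co-culture by 0.23 and -0.37 in the Sparc-deficient and the enzalutamide co-culture. Stmn2, a neuronal microtubule regulator, had 4.33, 6.21 and 4.03 CPM with Sparc-deficient fibroblasts, against 2.01, 1.40 and 2.13 with enzalutamide (log2 1.38 ± 0.23), and Cplx2, which acts in synaptic release, differed by -0.42 ± 0.11, a call lost in both fits that account for the numbering. Without Sparc-deficient replicate 2 or the library rich in ribosomal RNA 2 members were lower. Eno2, at 46.6 ± 0.920 CPM in the Sparc-deficient co-culture and 42.2 ± 3.05 in the enzalutamide co-culture (SD, n = 3 each), was not called (adjusted p 0.234). Chga had 0 counts in all 6 libraries, and Syp had 1, 0 and 4 counts with Sparc-deficient fibroblasts, against 0, 0 and 3 counts with enzalutamide. The 28 markers together summed to 233 to 239 CPM in the Sparc-deficient co-culture and 178 to 188 CPM in the enzalutamide co-culture, most of it from Ncam1 and Eno2.

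Epithelial genes were low in all 6 libraries, in contrast to the adenocarcinoma label. Of 18 luminal markers 15 stayed below 1 CPM in every library and 4 were at 0, Epcam and Krt8 were not tested, and the 18 summed to 45.0 to 46.3 CPM in the Sparc-deficient co-culture and 18.4 to 22.2 in the enzalutamide co-culture. The keratin genes Krt7, at 25, 24.8 and 22.4 CPM with Sparc-deficient fibroblasts, against 11.4, 9.70 and 11.3 with enzalutamide, and Krt19, at 15.6, 18.4 and 18.0 CPM with Sparc-deficient fibroblasts, against 6.12, 5.25 and 7.42 with enzalutamide, made up most of that sum. Both were higher, by 1.15 ± 0.09 and 1.47 ± 0.17 on the log2 scale. Among 4 tested basal markers Trp63, the basal lineage factor p63, had 5.56, 6.16 and 7.23 CPM with Sparc-deficient fibroblasts, against 1.45, 1.70 and 2.13 with enzalutamide (log2 1.84 ± 0.19), and the hemidesmosome genes Itgb4 (0.94) and Col17a1 (1.66) were also higher. The Itgb4 call was lost in both fits that account for the numbering, and that of Col17a1 without enzalutamide replicate 3 (adjusted p 0.0507).

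Genes of the Sparc family and the matrix followed. Sparcl1, which encodes the SPARC-like protein hevin, had the smallest p of all named genes. It had 15.4, 17.3 and 14.4 CPM in the Sparc-deficient co-culture, against 86.5, 84.9 and 93.0 in the enzalutamide co-culture, so it was 5.62-fold lower (log2 -2.49 ± 0.08, adjusted p 2.47e-16). Relative to the wild-type co-culture, at 41.1, 36.8 and 40.9 CPM, it differed by -1.33 and by 1.16. Spock3 differed by 0.90 and Smoc2 by -1.14. In all, 2 of 6 tested family genes were higher and 2 lower, against 12.9% and 12.6% of all tested genes. Ptn, which encodes the growth factor pleiotrophin, had 68.0, 47.9 and 60.2 CPM with Sparc-deficient fibroblasts, against 206, 244 and 210 with enzalutamide (log2 -1.90 ± 0.13, adjusted p 2.09e-10). Both genes were chosen for a large difference without overlap of the groups.

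Collagen chain genes were split, and most differences were small. The list counts here stand beside 12.9% of all tested genes higher and 12.6% lower. Col1a1, a chain of type I collagen, averaged 11940 ± 286 CPM in the Sparc-deficient co-culture and 8858 ± 292 in the enzalutamide co-culture (SD, n = 3 each; log2 0.43 ± 0.05), and 9 of 29 tested chains were higher and 4 lower. Under both fits that account for the numbering 4 chains were higher. The enzymes that hydroxylate and crosslink collagen were higher in 11 of 19 and lower in none, among them P4ha2, Plod1 (0.82), Loxl3 (0.56) and, named after their values were seen, Lox (0.82) and P3h2 (0.97). Against the wild-type co-culture, 9 of these were higher in the Sparc-deficient co-culture, where 6.72% of all tested genes were. In the enzalutamide co-culture 6 were lower, where 3.49% of all tested genes were. Among metalloproteinases and their inhibitors 7 of 28 were higher and 4 lower, with Timp3 at 0.73 ± 0.06. The lower shares of collagen chains and of metalloproteinases were near that of all tested genes. Of 12 tested small leucine-rich proteoglycans 5 were higher and 1 lower, with Fmod at 1.10 and Podnl1 at 0.71, and 3 were higher without Sparc-deficient replicate 2 or enzalutamide replicate 1. Integrins were higher in 7 of 19 and lower in 2, among them Itga11 (0.51), Itga6 (0.52) and Itga8 (-0.96), with 3 and 2 higher in the fits with the numbering as a term and with replicate 1 alone.

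Markers of fibroblasts were high in both groups, but T23 cells alone express them too, as with Sparc. The 24 markers summed to 50070 to 52790 CPM in the Sparc-deficient co-culture and 42420 to 44110 in the enzalutamide co-culture, and 1 was at 0. Of 21 tested markers 13 were higher and 2 lower, against 12.9% and 12.6% of all tested genes. Mfap5, a microfibril protein, had 116, 119 and 103 CPM with Sparc-deficient fibroblasts, against 39.0, 40.8 and 44.5 with enzalutamide (log2 1.44 ± 0.08), Fbln2 differed by 0.89 ± 0.06, and Fap, the fibroblast activation protein gene, by -1.43 ± 0.18. The higher count was 8 without Sparc-deficient replicate 1, 7 without enzalutamide replicate 2 and 6 in both fits that account for the numbering. The part of a different fibroblast content in any result here was not tested. Of 13 macrophage and leukocyte markers 11 were below 1 CPM in all 6 libraries, as were 9 of 10 endothelial and 9 of 12 adipocyte and muscle markers. Their sums were 16.4 to 18.0, 4.24 to 4.73 and 7.54 to 8.81 CPM in the Sparc-deficient co-culture and 14.9 to 17.1, 4.25 to 4.70 and 5.80 to 6.35 CPM in the enzalutamide co-culture. At 0 in all 6 libraries were 6, 2 and 5 of these markers, among them Adgre1, Cldn5 and Lep. Each list had 1 called member. Cd68 (0.54) lost its call without Sparc-deficient replicate 2 or enzalutamide replicates 1 or 2, Tek (-1.36) without Sparc-deficient replicates 2 or 3 or enzalutamide replicate 2, and Fabp4 (0.41) without Sparc-deficient replicate 3 or enzalutamide replicates 1 or 2, and all 3 lost it in both fits that account for the numbering.

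Cholesterol efflux and liver X receptor (LXR) target genes were lower in 11 of 19 tested members and higher in 3, against 12.6% and 12.9% of all tested genes, with a median of -0.21. Abca1, the main cholesterol exporter, had 58.1, 68.5 and 68.6 CPM in the Sparc-deficient co-culture, against 167, 153 and 162 in the enzalutamide co-culture (log2 -1.30 ± 0.07, adjusted p 1.02e-11). It differed from the wild-type co-culture by -0.20 (adjusted p 0.0824) in the Sparc-deficient and by 1.11 (adjusted p 5.39e-10) in the enzalutamide co-culture. Apod, a lipocalin, had 25.2, 18.7 and 23.5 CPM with Sparc-deficient fibroblasts, against 36.3, 45.6 and 42.6 with enzalutamide (log2 -0.88 ± 0.11), and Arl4c was higher by 0.59. Lower members numbered 5 with the numbering as a term, 4 with replicate 1 as the only enzalutamide library, and 7 without Sparc-deficient replicate 1 or 2. Against the wild-type co-culture 3 were higher and 1 lower in the Sparc-deficient co-culture, where 6.72% of all tested genes were higher and 4.79% lower. In the enzalutamide co-culture 9 were higher and 1 lower, where 3.7% and 3.49% of all tested genes were. Sterol biosynthesis genes were evenly split, with 4 of 24 higher and 4 lower, among them Cyp51 at 0.27. Of these, 2 and 2 were called with the numbering as a term, 2 and 1 with replicate 1 as the only enzalutamide library, and 2 were lower without enzalutamide replicate 2.

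Retinoid genes were higher in 10 of 17 and lower in 3, with 1 lower in both fits that account for the numbering. Aldh1a1, which makes retinoic acid, had 17.0, 16.6 and 17.4 CPM with Sparc-deficient fibroblasts, against 7.71, 7.95 and 6.79 with enzalutamide (log2 1.18 ± 0.10), Rbp4, the retinol carrier, differed by 2.11 ± 0.27, and Cyp26b1, which degrades retinoic acid, by -0.69 ± 0.10. Among steroid-metabolising enzymes 1 of 12 was higher and 4 were lower, against 12.9% and 12.6% of all tested genes. Akr1c14, a steroid reductase, had 10.9, 11.6 and 13.0 CPM in the Sparc-deficient co-culture, against 28.4, 32.3 and 28.1 in the enzalutamide co-culture (log2 -1.32 ± 0.10, adjusted p 7.39e-10). Hsd11b1, which activates glucocorticoids, was higher by 0.96 ± 0.11, and Cyp7b1 was lower at -0.78 ± 0.11. The lower count was 2 in both fits that account for the numbering and without Sparc-deficient replicate 1 or 2 or enzalutamide replicate 2. Among 6 aryl hydrocarbon receptor genes Ahr (1.12) and Tiparp (0.81) were higher and Nqo1 (-0.65) lower.

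NRF2 target genes, which defend against oxidants, were lower in 15 of 29 tested members and higher in 3, with a median of -0.17. The list counts here stand beside 12.6% of all tested genes lower and 12.9% higher. In the main fit none of these lists exceeded that higher share. Gsta4, a glutathione transferase, had 47.5, 43.2 and 46.0 CPM in the Sparc-deficient co-culture, against 85.5, 85.5 and 79.7 in the enzalutamide co-culture (log2 -0.87 ± 0.08), and Gclc, which makes glutathione, differed by -0.59 ± 0.07. Lower members numbered 9 with the numbering as a term and 8 with replicate 1 as the only enzalutamide library. Heat shock chaperones were lower in 10 of 21 and higher in none, all by small amounts such as -0.39 for Hspd1 and -0.30 for Hsph1. That count was 4 in both fits that account for the numbering and 5 without Sparc-deficient replicate 2 or enzalutamide replicate 2. Integrated stress response genes were lower in 10 of 26 and higher in 2, among them Atf4 at -0.25 and Ppp1r15a at 0.45, with 3 and 2 lower when the numbering was a term and when replicate 1 stood alone. The higher count was 4 in the fit without the library rich in ribosomal RNA.

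Mitochondrially encoded genes had the lowest list median, at -0.84. Of 9 tested members 6 were lower and none higher, against 12.6% and 12.9% of all tested genes. In the fit without the library rich in ribosomal RNA 2 were higher. mt-Cytb, a subunit of respiratory complex III, had 910, 1879 and 1828 CPM in the Sparc-deficient co-culture, against 2100, 4080 and 4246 in the enzalutamide co-culture (log2 -1.18 ± 0.27, adjusted p 0.00272). Within either group replicate 1 was the lowest, as it was for the mitochondrial share of the library. The groups did not overlap, which was a condition of choosing mt-Cytb. None of the 6 was called with the numbering as a term, and mt-Cytb differed by -0.45 in both fits that account for the numbering. Both fits rest on enzalutamide replicate 1, the lowest of its group, against all 3 Sparc-deficient libraries. They therefore cannot tell the numbering from a low replicate 1, whose values were 910 and 2100 CPM.

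Interferon-stimulated genes were lower in 13 of 35 and higher in 5, while class I antigen presentation genes were higher in 14 of 22 and lower in 3. Shares over all tested genes were 12.6% lower and 12.9% higher, so the higher interferon and the lower class I counts were near them. Ifit1, an antiviral RNA-binding protein, had 80.5, 76.0 and 82.2 CPM in the Sparc-deficient co-culture, against 134, 164 and 144 in the enzalutamide co-culture (log2 -0.89 ± 0.08, adjusted p 1.75e-08). The class I heavy chain gene H2-K1 had 656, 642 and 624 CPM with Sparc-deficient fibroblasts, against 405, 409 and 453 with enzalutamide (log2 0.60 ± 0.06, adjusted p 7.07e-08), and H2-D1 differed by 0.60 too. Neither gene's groups overlapped. H2-Q7 was higher by 1.91 ± 0.14, but class I genes and the Ifit cluster have near-identical copies, and how reads with several matches were counted is not given, so single members are uncertain. With the numbering accounted for in either way, 8 class I genes were higher, 0 or 1 was lower, 1 interferon gene was higher and 8 or 7 were lower. The count of interferon genes that were higher was 2 without Sparc-deficient replicate 1 and 3 without enzalutamide replicate 3, and that of lower class I genes was 1 without Sparc-deficient replicate 1 and 0 without replicate 2 of either group.

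Complement genes differed singly. C3, the central component, had 175, 176 and 194 CPM in the Sparc-deficient co-culture, against 100.3, 113 and 112 in the enzalutamide co-culture (log2 0.74 ± 0.06), and the lectin pathway protease Masp1 differed by 1.00 ± 0.07. Relative to the wild-type co-culture, C3 differed by 1.07 in the Sparc-deficient and by 0.33 in the enzalutamide co-culture. In all, 3 of 11 tested complement genes were higher and 2 lower, against 12.9% and 12.6% of all tested genes.

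Some cell cycle genes were lower in the Sparc-deficient co-culture, by small amounts. Of 40 DNA replication genes 11 were lower and none higher (median -0.11), and of 35 mitosis genes 11 were lower and 1 higher (median -0.12), where 12.6% of all tested genes were lower and 12.9% higher. Mcm4, a helicase subunit, averaged 80.5 ± 1.16 CPM in the Sparc-deficient co-culture and 94.6 ± 4.66 in the enzalutamide co-culture (SD, n = 3 each; log2 -0.23 ± 0.05), and the mitotic kinesin Kif11 differed by -0.26 ± 0.05. With the numbering accounted for in either way 4 replication and 3 mitosis genes were lower. Single libraries mattered too. Without Sparc-deficient replicate 2 or 3, 7 replication genes were lower, and without enzalutamide replicate 1 or 3, 5 were. Of the mitosis genes 6 and 4 were lower without Sparc-deficient replicate 1 and 3, and 7 and 5 without enzalutamide replicate 1 and 3. Against the wild-type co-culture 9 replication and 6 mitosis genes were lower in the Sparc-deficient co-culture, where 4.79% of all tested genes were lower. In the enzalutamide co-culture none and 1 were lower, against 3.49% of all.

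Clock genes, which run the circadian transcription loop, were higher in 13 of 18 tested members and lower in none. These counts stand beside 12.9% and 12.6% of all tested genes, and the list median was 0.38. The called members were mainly repressors and output factors. Bhlhe40, a repressor that hypoxia also induces, had 262, 273 and 265 CPM in the Sparc-deficient co-culture, against 142, 137 and 172 in the enzalutamide co-culture (log2 0.83 ± 0.10, adjusted p 5.57e-07). Nfil3 differed by 0.72 ± 0.09 and Bhlhe41 by 0.57 ± 0.08, and the activators Clock and Arntl by -0.16 and -0.09, which were not called. Without Sparc-deficient replicate 2 the count was 8, and in both fits that account for the numbering 9.

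**Figure D4:**
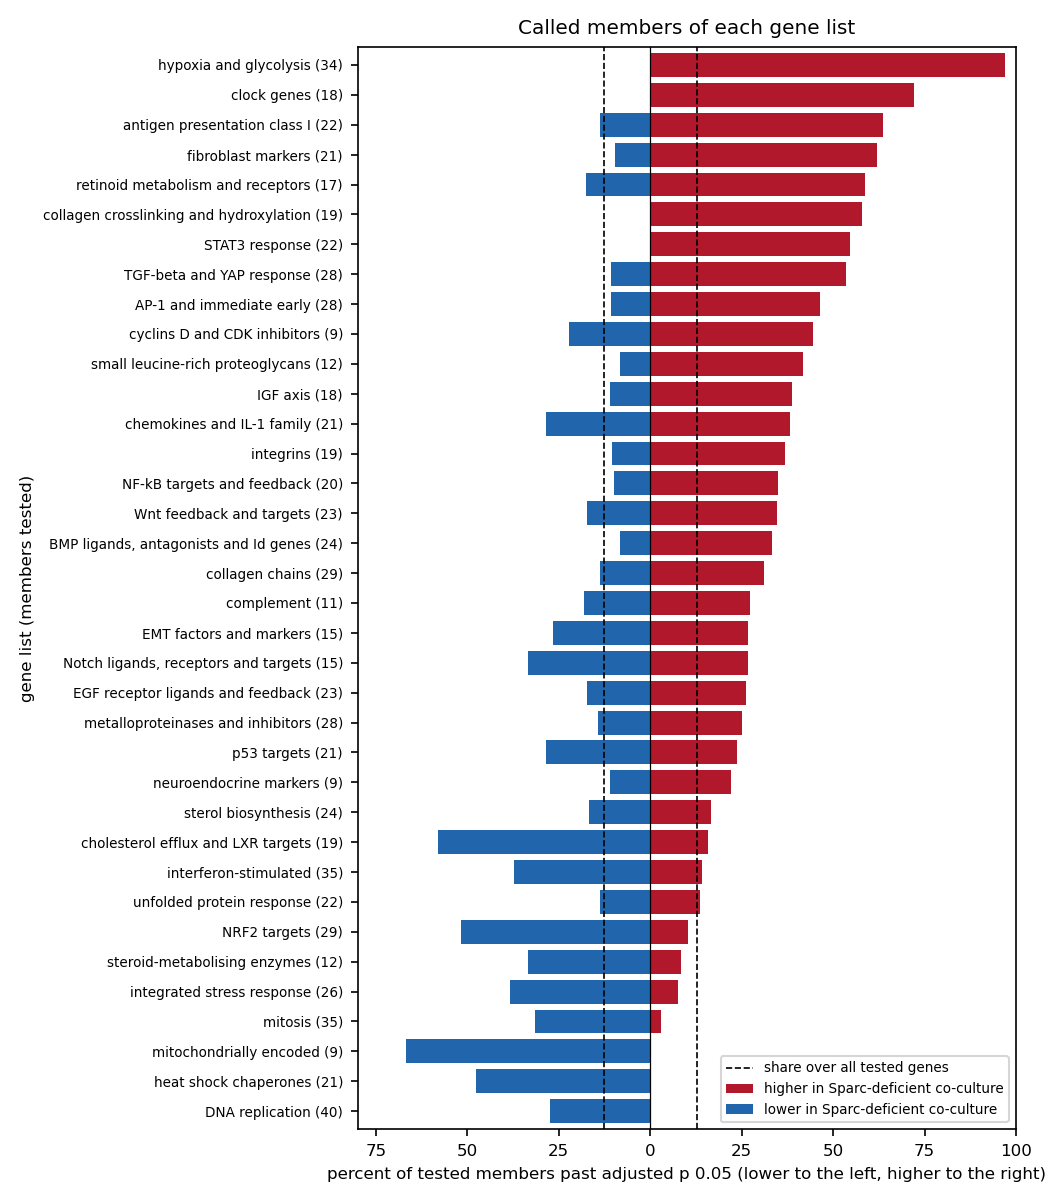
Percent of the tested members of each gene list that passed an adjusted p of 0.05, with those higher in the Sparc-deficient co-culture to the right and those lower to the left, for the lists with at least 9 tested members (their number in brackets), androgen genes left out. Dashed lines give the shares over all tested genes, 12.9% higher and 12.6% lower, and the hypoxia and glycolysis list, with 33 of 34 higher, reaches furthest to the right.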

How the data were processed

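The deposited files hold whole-number counts of reads per gene, 1 file per library, made by the authors from stranded polyadenylated RNA libraries on mouse genome GRCm38. The submitters' processing notes name STAR 2.6.1d, featureCounts 2.0, cutadapt 2.9, DESeq2, FastQC 0.11.9 and bcl2fastq 2.20.0.422, with no roles or settings. The annotation release, the strand setting and the treatment of multi-mapping reads are not given in the sources used here. Each file has 55487 gene IDs, of which 55227 were named from a GENCODE table and 260 were not, with 0.00552% of the counts.

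Counts of all 18 libraries were fitted with edgeR 4.0.16 (limma 3.58.1, R 4.3.3), with 1 mean per group, TMM scaling and genes kept by filterByExpr at a minimum count of 10. The quasi-likelihood F test of the Sparc-deficient against the enzalutamide co-culture was two-sided, with 12 residual degrees of freedom among libraries and a biological coefficient of variation of 7.03%. P-values were adjusted by the Benjamini-Hochberg method over 13600 genes and called under 0.05. The same fit gave either co-culture against the untreated wild-type co-culture. CPM are normalised by TMM, fold changes are Sparc-deficient over enzalutamide, and SE is the log2 fold change divided by the root of F. In simulated counts for this comparison, over 13400 genes, the test recovered 76.8% of genes given a 1.5-fold change and 80.8% given a 2-fold change. Of 13202 unchanged genes 7 were called. The simulation changed a far smaller share of genes than the 25.5% called here and held no numbering or replicate effect. These rates need not hold for the data.

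Named genes were Sparc, Ncam1, Eno2, Syp and Chga, the 12 called genes with the largest difference in either direction at a mean of at least 5 CPM without overlap of the groups, and up to 3 called members of each gene list by smallest p, and a few genes that this rule names are not reported here. The hypoxia list is given whole, and any further list member that is named was picked with its values in view. The comparison, the members and the gene lists were chosen with earlier results of these data known. Alternatives were RLE and upper-quartile scaling, no filter and a stricter one (mean of at least 1 CPM), a fit of only these groups, a fit without the library rich in ribosomal RNA, the title numbering as a term or as a restriction, a replicate block, leaving out each library, DESeq2 1.42.0 and stricter thresholds. Floors for a count of 0 cover counting error only.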

Additional observations from a re-analysis of the deposited data

How the results depend on the processing

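Against 3470 called genes (1751 higher, 1719 lower, 340 at least 2-fold), the title numbering as a term gave 1657 (896 higher, 761 lower), and replicate 1 as the only enzalutamide library gave 1550 (853 higher, 697 lower). With the term, 1527 of the 3470 genes were called too, and with replicate 1 alone 1424. Both settings rest on fewer enzalutamide libraries, since replicate 1 is the only one numbered with the Sparc-deficient libraries. An adjusted p under 0.01 left 2039 genes and a 2-fold minimum 340, and the stricter filter left 199 genes at least 2-fold. Leaving out each of the 6 compared libraries gave 2511 to 3007 called, 1328 to 1552 higher, 1183 to 1455 lower and 277 to 346 at least 2-fold. The ribosomal RNA-rich library lies outside the comparison, and leaving it out gave 4117 called genes, 2080 higher, 2037 lower and 377 at least 2-fold. The fit with a replicate block called 3344 genes. Over the tested genes same-numbered replicates did not deviate together, with correlations of -0.0222, 0.0071 and -0.0619. Replicate 1 had the lowest mitochondrial share in both groups, however, so these correlations do not settle whether the numbers pair the samples. DESeq2 called 3478 genes, 3331 of them shared. Of 136 called named genes, 115 kept their call in the 16 refits at the same threshold, 21 lost it in at least 1 and none changed sign. Genes near the floor are limited by depth, and for 2543 uncalled genes the 95% interval reached past 1.5-fold.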

Other observations

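Genes of growth factor pathways differed singly. The counts stand beside 12.9% of all tested genes higher and 12.6% lower. Of 23 tested EGF receptor genes, 6 were higher and 4 lower in the Sparc-deficient co-culture. Egfr, the receptor, had 209, 215 and 254 CPM in the Sparc-deficient co-culture, against 338, 360.4 and 343 in the enzalutamide co-culture (log2 -0.62), and the EGF family ligands Ereg and Nrg1 were higher by 0.77 and 0.57. With the numbering accounted for, 3 were higher and 1 lower, and without Sparc-deficient replicate 1 the lower count was 2. Among 18 IGF genes 7 were higher and 2 lower, led by the IGF-binding protein Igfbp4 (0.68), Stc1 (1.19), whose product inhibits a protease of IGF-binding proteins, and the adaptor Irs2 (0.43). Only 1 was lower without Sparc-deficient replicate 1 and with the numbering accounted for. Notch genes were split, with 4 of 15 higher and 5 lower, the receptor Notch3 at 0.60, the nuclear partner Rbpj at 0.49 and Notch1 at -0.50.

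Gjb2, a gap junction gene below the 5 CPM level used for naming and singled out after its values were seen, had 6.20, 11.9 and 5.39 CPM in the Sparc-deficient co-culture, against 0.0467, 0.150 and 0.485 in the enzalutamide co-culture (log2 5.07 ± 0.42, edgeR adjusted p 3.58e-09). The enzalutamide values lay near or below the floor of 3 counts in most libraries, so the fold is imprecise. Relative to the untreated wild-type co-culture, Gjb2 differed by 0.98 in the Sparc-deficient and by -4.09 in the enzalutamide co-culture. Among 21 p53 target genes 5 were higher, such as Btg2 (0.68), Pmaip1 (0.50) and Cdkn1a (0.31), and 6 lower, with 3 higher without enzalutamide replicate 2 3 lower without Sparc-deficient replicate 2, and 2 lower in both fits that account for the numbering. Of 22 unfolded protein response genes 3 were higher and 3 lower, close to the 12.9% and 12.6% of all tested genes, and with the numbering accounted for none was called. Of 15 genes of the epithelial-mesenchymal transition 4 were higher, among them Twist1 (0.39) and Tnc (0.33), and 4 lower, among them Twist2 (-0.50). The lower count was 2 without replicate 2 of either group and 0 with the numbering accounted for. Of 9 cyclin D and CDK inhibitor genes 4 were higher and 2 lower, with Cdkn2d at 0.49 and Cdkn2c at -0.27. Over the 16 refits 1 to 4 were higher and 0 to 3 lower. With the numbering as a term 2 were higher, with replicate 1 as the only enzalutamide library 1, and in both none was lower. Without Sparc-deficient replicate 2 or 3 or enzalutamide replicate 1, 2 were higher. The lower count was 1 without Sparc-deficient replicate 2 or 3 or enzalutamide replicate 3, and 0 without enzalutamide replicate 2. Cdkn2c lost its call in both fits that account for the numbering and without replicate 2 of either group, and Cdkn2d with replicate 1 as the only enzalutamide library.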
